A study of Rattus norvegicus with 4 samples.

Results

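The interleukin-6 (IL-6) family is represented here by 9 genes, the ligands Il6, Lif, Il11, Clcf1 and Cntf and the receptor chains Il6st, Il6r, Lifr and Osmr. They were taken as the probes whose only gene symbol was one of these names, and each of the 9 had 1 probe among the 18166 named genes of the array. The family was chosen by its measured values on these same arrays, since Il6 and Lif were seen to stay high when GW was added, so every level and difference below is a description without a test. All 9 genes passed the filter on low values, which kept the 11790 genes whose highest log2 signal over the 4 arrays was at least 5.83, the median of the whole table.

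The samples were 4 primary cultures of cortical astrocytes prepared from Sprague-Dawley rats aged 1 day, each read on 1 array, so no p-value or spread between cultures can be given. The SHP siRNA culture received an siRNA against SHP together with interferon-γ (IFN-γ) and a compound the labels call GW. The GW culture received control siRNA, IFN-γ and GW, the IFN-γ culture received control siRNA and IFN-γ, and the untreated culture received control siRNA alone. Treatment lasted 3 h, and before use the cells spent 2 days in serum-free medium to deplete microglia and meningeal cells. The labels do not say whether pups were pooled, and GW without IFN-γ and SHP siRNA without GW were not analysed here.

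Cytokines of the IL-6 family signal through receptor complexes that contain the chain gp130, encoded by Il6st. IL-6 and IL-11 first bind a receptor chain of their own and then gp130. The complexes of leukaemia inhibitory factor (LIF), ciliary neurotrophic factor (CNTF) and cardiotrophin-like cytokine factor 1 (CLCF1) join gp130 with the LIF receptor. The complexes activate Janus kinases and the transcription factor STAT3, and SOCS3 limits the signal. In the brain, astrocytes are a known source of IL-6 and LIF during inflammation, and CNTF and LIF are known to drive astrocyte reactivity.

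The promoters of Il6, Il11 and Cntf are shown because these ligands had different patterns over the 4 cultures and because each holds a match to a searched motif. Each window runs from 250 bases before to 50 bases after the gene's start in RefSeq on rat assembly GRCr8, at chr4:5894526-5894825 (minus strand) for Il6, chr1:78098372-78098671 (plus strand) for Il11 and chr1:219314486-219314785 (minus strand) for Cntf. They read 5′ to 3′ along the gene, and capitals mark the motif matches.
Il6: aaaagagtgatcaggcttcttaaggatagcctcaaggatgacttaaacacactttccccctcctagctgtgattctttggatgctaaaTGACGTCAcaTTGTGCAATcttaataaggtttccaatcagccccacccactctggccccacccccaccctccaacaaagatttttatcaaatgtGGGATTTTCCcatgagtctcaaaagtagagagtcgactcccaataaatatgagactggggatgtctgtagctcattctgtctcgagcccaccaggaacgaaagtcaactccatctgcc
Il11: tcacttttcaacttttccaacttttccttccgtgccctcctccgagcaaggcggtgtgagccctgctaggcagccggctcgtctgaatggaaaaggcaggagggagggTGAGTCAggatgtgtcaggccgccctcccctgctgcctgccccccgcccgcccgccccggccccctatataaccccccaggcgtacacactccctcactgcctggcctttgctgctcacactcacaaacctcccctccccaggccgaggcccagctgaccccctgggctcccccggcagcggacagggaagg
Cntf: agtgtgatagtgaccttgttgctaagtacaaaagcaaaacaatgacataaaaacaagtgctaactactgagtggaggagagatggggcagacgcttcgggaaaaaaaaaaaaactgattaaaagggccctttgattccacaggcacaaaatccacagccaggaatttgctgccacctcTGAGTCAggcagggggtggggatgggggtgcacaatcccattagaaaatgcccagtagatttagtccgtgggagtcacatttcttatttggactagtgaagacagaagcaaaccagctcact

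The motifs searched on both strands were AP-1 (TGANTCA), the cyclic AMP response element (TGACGTCA), the C/EBP motif (TTNNGNAAT), the interferon-γ activation site (TTCNNNGAA) and the NF-κB motif. The Il6 window held the cyclic AMP response element 162 bases before the start, a C/EBP match at 152 bases and an NF-κB match, GGGATTTTCC, at 68 bases. Among 27457 rat promoter windows of 300 bases, 1.91% held the cyclic AMP response element, 12.1% the C/EBP motif and 5.06% the NF-κB motif. The Il11 and Cntf windows each held 1 AP-1 match, TGAGTCA, at 142 and 72 bases before the start, and Osmr held TGATTCA 33 bases before the start site its window uses, against 7.33% of all windows with an AP-1 match. None of the windows found held the interferon-γ activation site, against 8.68% of all windows, and with so few windows nothing is read from this. Windows were found for 7 of the 9 genes, and Lif and Clcf1, which had none, were not searched. The start sites used for Osmr, Il6r, Il6st and Lifr lie 241, 1496, 11360 and 11602 bases inside the RefSeq gene, so these windows, with the Osmr match, are not at the gene's outer end. Il6r, Il6st and Lifr held none of the 5 motifs. A match is a description of the letters and not a measured binding site.

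Array medians ran from 5.79 to 5.87 log2. The gene of small heterodimer partner (SHP), Nr0b2, had a log2 signal of 3.45 in the SHP siRNA culture, against 5.20 in the GW culture, 5.14 in the IFN-γ culture and 5.33 in the untreated culture. All 4 values lie below the table median, where the arrays' background is unknown, which makes the size of this difference uncertain. Of 11 astrocyte markers 10 were at or above the table median on every array, and glial fibrillary acidic protein, Gfap, lay between 12.03 and 12.11. All 17 microglia markers measured were also at or above it on every array. Their summed signal had a log2 of 13.5 in the SHP siRNA culture, 13.3 in the GW culture, 13.9 in the IFN-γ culture and 14.2 in the untreated culture. Fewer cells of a type and less RNA per cell cannot be told apart in such cultures.

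The inducible ligands, Il6 and Lif, were far higher in all 3 treated cultures than in the untreated one. Il6 had log2 signals of 10.03 in the SHP siRNA culture, 10.95 in the GW culture and 10.45 in the IFN-γ culture, against 6.72 in the untreated culture. On the linear scale it was 13.3-fold higher with IFN-γ and 18.7-fold higher with IFN-γ and GW than without treatment. Among all genes past the filter Il6 had the 5th highest difference with IFN-γ, and with IFN-γ and GW against no treatment the 2nd highest, below the nuclear receptor gene Nr4a3 (log2 difference 4.47). These ranks are a description, since the family was chosen partly for high Il6 values.

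Lif, whose product acts on neural and glial precursors, had log2 signals of 9.76 in the SHP siRNA culture, 10.95 in the GW culture and 10.02 in the IFN-γ culture, against 8.22 in the untreated culture. It was 3.48-fold higher with IFN-γ and 6.64-fold higher with IFN-γ and GW than without treatment. Both genes therefore had the same order over the arrays, GW highest, then IFN-γ, then SHP siRNA, with the untreated culture lowest. Il6 and Lif started from different levels on different probes, which are not compared.

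Clcf1 and Il11 had a smaller range. Clcf1, a ligand of the CNTF receptor complex, had log2 signals of 8.53 in the SHP siRNA culture, 9.02 in the GW culture and 7.93 in the IFN-γ culture, against 7.25 in the untreated culture. Il11, a cytokine known for its part in blood cell formation and fibrosis, had 6.02 in the SHP siRNA culture, 6.81 in the GW culture and 5.94 in the IFN-γ culture, against 5.66 in the untreated culture. The GW culture was again the highest for both, but here the SHP siRNA culture stood above the IFN-γ culture. Il11 lay near the table median in the SHP siRNA and IFN-γ cultures and below it in the untreated culture, so its differences are uncertain in size.

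Cntf, which encodes a cytokine that astrocytes make and release after injury, ran the other way. It had log2 signals of 8.42 in the SHP siRNA culture, 8.84 in the GW culture and 9.54 in the IFN-γ culture, against 9.63 in the untreated culture. Cntf was 2.33-fold lower in the SHP siRNA culture than in the untreated one, the 40th lowest difference of 11790 genes, and 1.74-fold lower in the GW culture. Between the IFN-γ and untreated cultures its log2 difference was -0.09.

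The receptor chains varied less than the inducible ligands. Il6st, the shared chain gp130, had log2 signals of 11.14 in the SHP siRNA culture, 10.99 in the GW culture and 11.29 in the IFN-γ culture, against 11.09 in the untreated culture, a range of 0.30. Lifr, the LIF receptor chain, had 8.16, 8.09 and 8.35 in the SHP siRNA, GW and IFN-γ cultures, against 8.32 in the untreated culture, a range of 0.25. Both were lowest in the GW culture and highest in the IFN-γ culture.

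Il6r and Osmr were highest in the GW culture, as 4 of the ligands were. Il6r, the chain that binds IL-6, had log2 signals of 8.19 in the SHP siRNA culture, 8.48 in the GW culture and 8.03 in the IFN-γ culture, against 7.71 in the untreated culture, a range of 0.77. Osmr, the oncostatin M receptor chain, had 10.41 in the SHP siRNA culture, 10.84 in the GW culture and 10.33 in the IFN-γ culture, against 10.31 in the untreated culture, a range of 0.53. With 1 array per culture, neighbours in these orders cannot be separated by a spread.

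**Figure D1:**
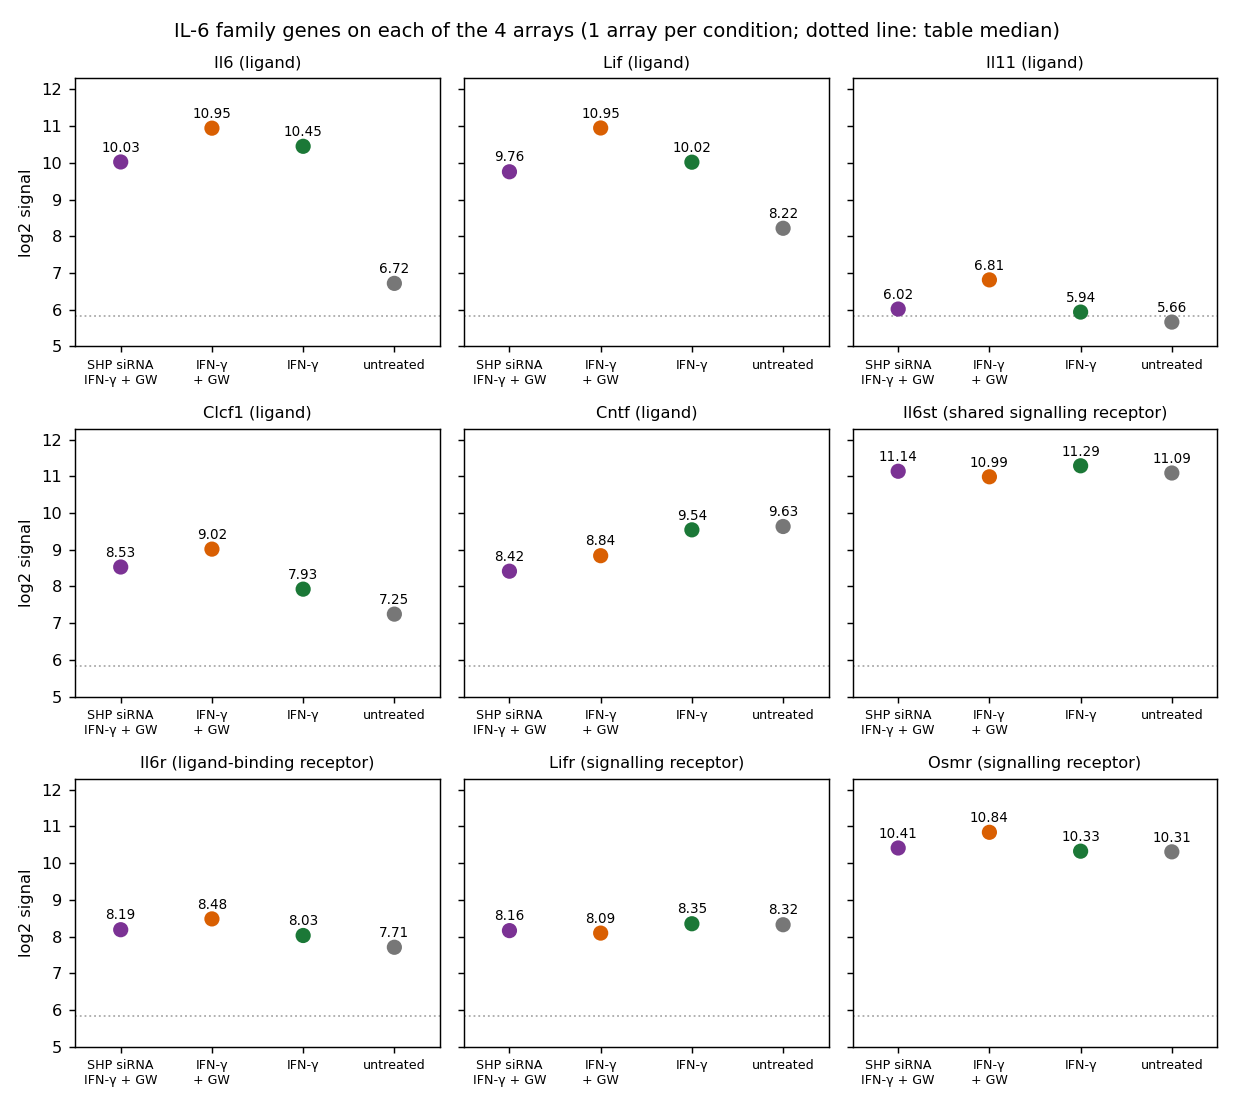
Log2 signal of the 9 IL-6 family genes (y axis) on the SHP siRNA, GW, IFN-γ and untreated arrays (x axis), 1 point per array, with the table median of 5.83 dotted. Il6, Lif, Il11, Clcf1, Il6r and Osmr are highest on the GW array, Cntf is lowest on the SHP siRNA array, and Il6st and Lifr stay within a range of 0.30.

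One question of the design is what IFN-γ did to these genes. A gene is counted as high or low below when its signals on 2 arrays differed by 2-fold or more. With IFN-γ against no treatment, 2 members were counted high, Il6 (log2 difference 3.73) and Lif (1.80), and 0 low, where 1.61% of all genes past the filter were high and 0.288% low. Clcf1 followed at 0.68, just past the upper end of the middle 95% of all genes, which ran from -0.48 to 0.67. The others were Il6r (0.32), Il11 (0.27), Il6st (0.20), Lifr (0.03), Osmr (0.02) and Cntf (-0.09). Altogether 8 of 9 lay above 0, against 40.1% of all genes, and their median was 0.27 against -0.04. The family was chosen because Il6 and Lif stayed high, which they already were with IFN-γ, so nothing is read from these counts.

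Of the other family genes, 9 of 11 had a probe with a single symbol and 6 passed the filter. The oncostatin M gene Osm, the direct neighbour of Lif on chromosome 14 in RefSeq, had log2 signals of 6.96 in the SHP siRNA culture, 7.09 in the GW culture and 7.15 in the IFN-γ culture, against 6.59 in the untreated culture. Its difference with IFN-γ was 0.56, beside 1.80 for Lif. Ebi3, a subunit of IL-27 and IL-35, was at 0.35, and Il27ra (0.02), the cardiotrophin gene Ctf1 (-0.04), Il11ra1 (-0.09) and Cntfr (-0.13) were nearer 0. Ctf2, Il31 and Il31ra stayed below the table median on all arrays.

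Downstream of gp130, 17 of 22 signalling genes were measured and all passed the filter. With IFN-γ 3 were high and 0 low, the high ones being the feedback inhibitor genes Socs1 (1.90) and Cish (1.08) and the transcription factor gene Stat5a (1.15), and the kinase gene Jak2 was at 0.88. Their median was 0.05. Socs3, the inhibitor that binds gp130 itself, was at 0.29, and Stat3 at 0.58. Among 23 genes that STAT3-activating cytokines are known to induce, 5 were high and 0 low, and the median was 0.26. The 4 with the greatest differences were the NF-κB cofactor gene Bcl3 (2.26), the adhesion gene Icam1 (2.20), the kinase gene Pim1 (2.01) and the AP-1 subunit gene Junb (1.94), while Gfap was at 0.03.

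Of 24 genes for transcription factors and RNA-binding proteins known to act on Il6 or Lif transcripts, 11 were high with IFN-γ and 0 low, 21 lay above 0, and the median was 0.86. The high ones included the NF-κB subunit gene Rel (2.06), Nfkbiz (1.95), whose product is a nuclear cofactor for Il6 transcription, and Zc3h12a (1.85), whose product degrades Il6 mRNA. Junb belongs to this list as well. The 3 below 0 were Zfp36l2 (-0.30), Elavl1 (-0.06) and Khsrp (-0.06), all RNA-binding protein genes.

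Microglia markers stood lower beside these differences. With IFN-γ 16 of 17 lay below 0, with a median of -0.36, Cx3cr1 at -1.23 and Csf1r and Trem2 both at -0.64. Astrocyte markers had a median of 0.10, with the water channel gene Aqp4 at 0.53, Fgfr3 at 0.24 and Sox9 at -0.16. Fibroblast and meningeal markers had a median of 0.06 with 7 of 10 above 0, Pdgfra at 0.43, Foxc1 at 0.32 and Ptgds at -0.29. The part of the cell makeup in the family's values was not tested.

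When GW was added to IFN-γ, Clcf1, Lif and Il11 stood higher. In the GW culture Clcf1 was 2.13-fold above its level in the IFN-γ culture (1.09 log2), Lif 1.91-fold (0.93), Il11 1.84-fold (0.88) and Il6 1.41-fold (0.49). In the family 1 gene was high and 0 low, where 0.958% of all genes were high and 0.95% low. Lif crossed the 2-fold line after median centring (1.01) and cyclic loess (1.03). This contrast was used in choosing the family, so nothing is read from its count.

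Osmr (0.51) and Il6r (0.45) also lay above 0 with GW, while Lifr (-0.25), Il6st (-0.30) and Cntf (-0.70) lay below it. In all 6 of 9 were above 0, against 42.1% of all genes, and the median was 0.49 against -0.05. Nothing is read from these values either, since the contrast entered the choice of the family. The middle 95% of all genes ran from -0.75 to 0.62, so Clcf1, Lif and Il11 lay beyond it, and Il6 and Cntf within. As deposited, all 6 other family genes past the filter lay below 0, with Ctf1 and Cntfr both at -0.06 and Osm at -0.07. Il11ra1 and Il27ra were both at -0.15 and Ebi3 at -0.92. This depended on the scaling, since 2 of the 6 lay above 0 after quantile normalization, 2 after cyclic loess and 3 after median centring.

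**Figure D2:**
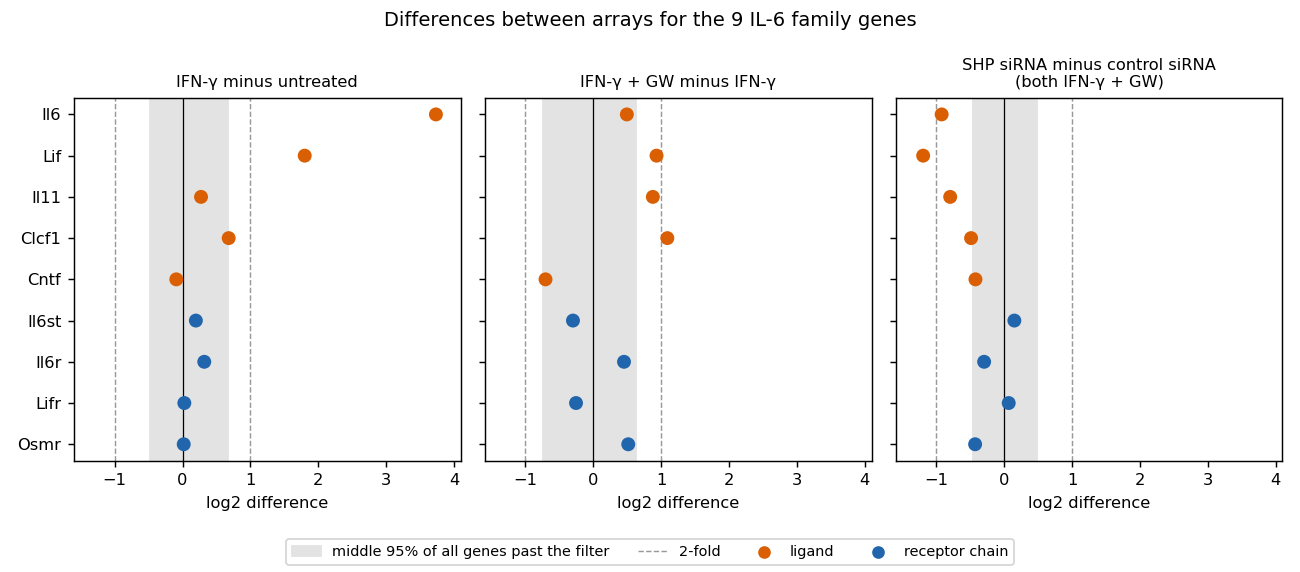
Log2 difference (x axis) of the 9 genes (y axis) in the comparisons of IFN-γ with no treatment, of IFN-γ and GW with IFN-γ, and of the SHP siRNA culture with the GW culture. Grey bands give the middle 95% of 11790 genes and dashed lines 2-fold. Il6 and Lif lie far to the right with IFN-γ, 4 ligands lie to the right of 0 with GW, and all 5 ligands lie to the left of 0 with SHP siRNA.

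Other inflammatory genes of the cultures are given for comparison, and the set was chosen with earlier results of these data known. With IFN-γ 28 of 35 past the filter were high and 0 low, the median was 2.00, and the chemokine genes Cxcl2 (4.43) and Ccl20 (4.19), Ifnb1 (3.20) and Tnf (3.18) led. Il6 lay below only Cxcl2 and Ccl20 of this set, and Lif near its median. With GW 0 of the 35 were high and 14 low, the median was -0.83, and the lowest were Cxcl9 (-2.86), Tnip3 (-1.95), Il1b (-1.94) and Cxcl11 (-1.65). The 4 above 0 with GW were Ptgs2 (0.93), the inducible prostaglandin enzyme gene, Nfkbia (0.27), Cxcl1 (0.26) and Il23a (0.07). Ptgs2 was the single gene of the 35 above Il6 and Lif with GW, at 0.933 beside 0.931 for Lif. The family was chosen because Il6 and Lif stayed high with GW unlike most inflammatory genes, so nothing is read from this contrast.

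The signalling genes went different ways with GW. Socs3 had log2 signals of 9.84 in the SHP siRNA culture, 10.82 in the GW culture and 9.05 in the IFN-γ culture, against 8.76 in the untreated culture, and stood 1.76 higher with GW. Socs1 had 7.88, 6.73 and 8.60 in the SHP siRNA, GW and IFN-γ cultures, against 6.70 in the untreated culture, and stood at -1.87 with GW. These feedback inhibitors thus had opposite orders over the 3 treated cultures. Stat5a (-1.28) and Jak2 (-0.68) were lower with GW, and over the 17 genes 1 was high and 2 low. The median of -0.07 was above 0 after median centring (0.01) and cyclic loess (0.02).

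Among the 23 STAT3-responsive genes 5 were high with GW and 0 low, and the median was 0.10. In this set 13 lay above 0 and 10 below, with Bcl3 the lowest (-0.89). The high ones were Fos (2.97), Nfil3 (2.61), Socs3, Myc (1.35) and Cebpb (1.00), and Fos, Junb and Cebpb also belong to the transcript control set. In that set 8 of 24 were high and 1 low, and the median was 0.63. The AP-1 and related genes Fosb (3.80), Fos, Atf3 (2.19) and Jun (2.02) were highest, and the NF-κB precursor gene Nfkb2 (-1.09) was the lowest. Of microglia markers 15 of 17 lay below 0 with GW, with a median of -0.47, Tyrobp at -1.22, Ptprc at -1.16 and Cd53 at -0.94. Of astrocyte markers 7 of 10 lay below 0, with a median of -0.19, Slc1a3 at -0.38, Slc1a2 at -0.35 and S100b at -0.32. Fibroblast and meningeal markers had a median of -0.09 with 7 of 10 below 0, Pdgfra at -0.85, Ogn at -0.26 and Foxc1 at -0.23. Their part in the family's values was not tested.

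**Figure D3:**
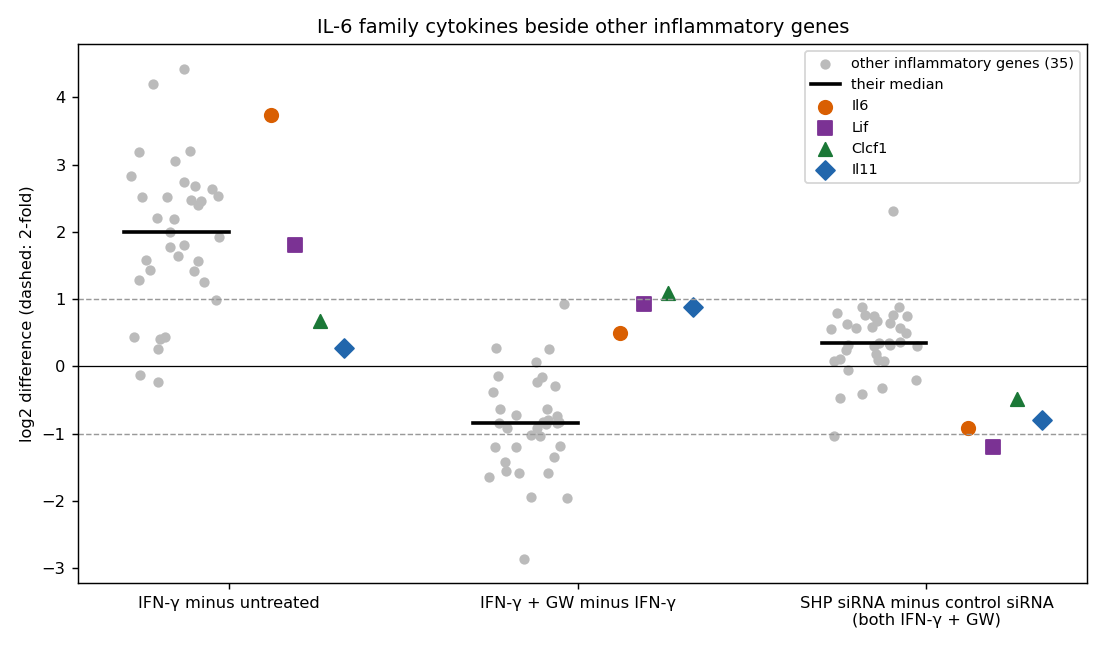
Log2 difference (y axis) of 35 other inflammatory genes (grey points, black bar their median) and of Il6, Lif, Clcf1 and Il11 (coloured symbols) in the same 3 comparisons (x axis). The grey medians are 2.00, -0.83 and 0.36, while the 4 cytokines lie above 0 with IFN-γ and with GW and below 0 with SHP siRNA. The GW comparison was used in choosing the family.

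The last main comparison is that of the SHP siRNA culture with the GW culture. All 5 ligands were lower with SHP siRNA. Lif was 2.29-fold lower (log2 difference -1.19), the 15th lowest of 11790 genes, Il6 1.89-fold lower (-0.92, 41st lowest) and Il11 1.73-fold lower (-0.79, 59th lowest). Clcf1 (-0.49) and Cntf (-0.42) differed by less, and the middle 95% of all genes ran from -0.46 to 0.48.

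Among the receptors Osmr (-0.43) and Il6r (-0.29) were lower, and Lifr (0.07) and Il6st (0.15) were nearer 0. In the family 0 genes were high and 1 low, where 0.144% of all genes were high and 0.263% low. Of the 9 genes 2 lay above 0, against 51.5% of all genes, and the median was -0.43 against 0.01. The family was chosen partly for high values on the GW array, which this comparison subtracts. Nothing is therefore read from this count or from the low ranks of Il6 and Lif given above. The GW comparison and the SHP siRNA comparison both use the GW array, with opposite signs, so an error of that array would enter both. Against the IFN-γ culture, which leaves that array out, the SHP siRNA culture was at -0.43 for Il6, -0.26 for Lif, 0.08 for Il11, 0.60 for Clcf1 and -1.13 for Cntf. There the median of the 9 members was -0.15 against -0.04 for all genes.

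The other inflammatory genes were mostly above 0 with SHP siRNA. Of 35, 29 lay above 0, 1 was high and 1 low, and the median was 0.36. Cxcl9 (2.31) and Ccl5 (-1.03) were the 2-fold members, and Il1b and Tnfaip2 were both at 0.88. Ptgs2 was at -0.46, on the same side of 0 as Il6 and Lif.

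Among the signalling genes Socs1 (1.15) was the 1 counted high with SHP siRNA, and 0 were low. Socs3 was at -0.98, Stat5b at -0.59 and Stat5a at 0.44, and the median of the 17 was -0.05. The STAT3-responsive genes had a median of -0.16, with 1 of 23 low, Nfil3 (-1.44), and Fos (-0.61) and Cebpb (-0.50) also below 0. In the transcript control set 0 of 24 were high and 1 low, Fosb (-1.39), and Atf3 was at -0.78, Arid5a, whose product stabilises Il6 mRNA, at -0.67 and Fosl1 at -0.66. Its median was -0.12.

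Markers of fibroblasts and meningeal cells stood higher with SHP siRNA, with 7 of 10 above 0 and a median of 0.46. The greatest differences were Pdgfra at 0.72, Col3a1 at 0.71 and Igf2 at 0.67. Microglia markers had a median of 0.17 with 15 of 17 above 0, Ptprc at 0.59, P2ry12 at 0.43 and Ctss at 0.39. Astrocyte markers had a median of 0.14 with 6 of 10 above 0 and 4 below. The greatest differences among them were Aqp4 at 0.71, S100b at 0.48 and Slc1a2 at 0.31. The part of the cell makeup in the lower ligand values was not tested.

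Set against the untreated culture, the treated cultures can be read on 1 common scale, though these differences share the untreated array. With IFN-γ and GW 4 of 9 members were high and 0 low, where 1.65% of all genes were high and 0.84% low. They were Il6 (4.23), Lif (2.73), Clcf1 (1.77) and Il11 (1.15). The family was chosen partly by values on the GW array, so nothing is read from this count. Il11 lay below the table median in the untreated culture and passed the filter only through the treated arrays. Of all genes counted in that comparison 66.2% were high, and 74.7% were after cyclic loess and 77.6% after median centring. With SHP siRNA, IFN-γ and GW 3 members were high, Il6 (3.31), Lif (1.54) and Clcf1 (1.28), and 1 low, Cntf (-1.22). Over all genes 1.59% were high and 0.882% low in that comparison, and of those counted 64.4% were high, or 77.7% after median centring and 73.4% after cyclic loess. Il6 was the 7th highest of all genes there.

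The genes most like 4 of the ligands in pattern were found by the root mean square distance between their 3 log2 differences from the untreated array. For Il6 the nearest were the chemokine receptor-like gene Ccrl2 (distance 0.63 log2), Ccl20 (0.63), Ptgs2 (0.71), Cxcl2 (0.71), Rnd1 (0.72) and Csrnp1 (0.73). Ccrl2, Ccl20 and Cxcl2 had their highest treated value with IFN-γ alone, and Ptgs2, Rnd1 and Csrnp1 with GW, as Il6 did. Among the genes searched none came closer than 0.63 to Il6, while the nearest genes of the other ligands lay closer. The search left out symbols beginning with Olr, and so Olr1, which was at 3.65 with IFN-γ.

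For Lif the nearest were the immediate early gene Egr3 (0.32), the AP-1 subunit gene Fosl1 (0.34), C3h11orf96 (0.40), Arid5a (0.42), the Krüppel-like factor gene Klf6 (0.45) and the rhythmically expressed gene Noct (0.46). For Clcf1 they were Klf10 (0.13), the NF-κB-inducing kinase gene Map3k14 (0.14), Bhlhe40 (0.17), the histone demethylase gene Kdm6b (0.18), Myc (0.18) and Wsb1 (0.20). For Il11 they were the signalling inhibitor gene Spry2 (0.08), the serum response factor gene Srf (0.10), Tnfrsf12a (0.11), Spred3 (0.16), Procr (0.16) and Klf7 (0.16). All 18 of these genes were highest in the GW culture, as were the ligands they were picked to resemble, so nothing is read from this. Distances are smaller for genes with a smaller range, and each rests on 4 arrays. Ranked by Pearson correlation over the 4 arrays instead, among 534 genes with a range of at least 1 log2, 1 of the 6 nearest of Il6 (Ptgs2), 2 of Lif (Arid5a and Egr3), 0 of Clcf1 and 2 of Il11 (Spry2 and Srf) were the same.

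**Figure D4:**
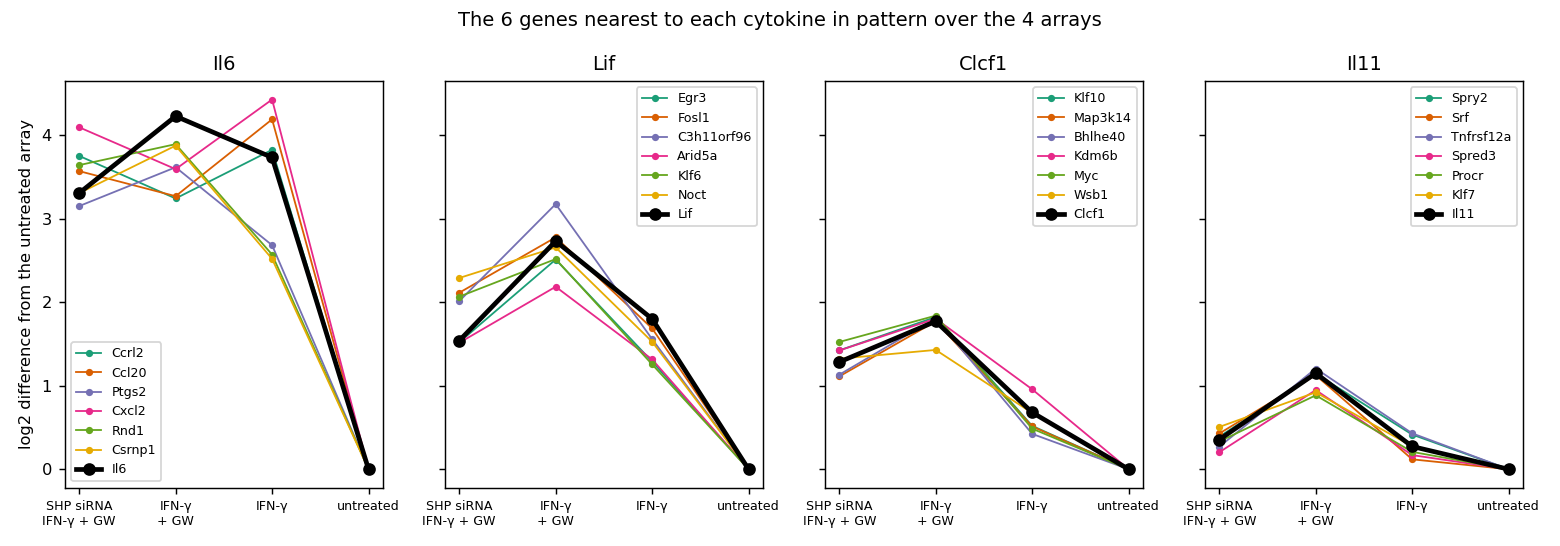
Log2 difference from the untreated array (y axis) on the SHP siRNA, GW, IFN-γ and untreated arrays (x axis) for Il6, Lif, Clcf1 and Il11 (thick black lines) and the 6 genes nearest to each (thin lines). The nearest genes of Lif, Clcf1 and Il11 all peak on the GW array, as do the ligands they were picked to resemble. Those of Il6 divide between a peak with IFN-γ alone and a peak with GW.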

How the data were processed

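The authors deposited 1 value per probe and array for 29489 probes on 4 arrays, read here as log2 signal from their span of 1.14 to 13.4. Neither the log base nor the normalization is given in the labels or the table. Sense cDNA made from Trizol-extracted RNA was labelled with biotin, per the labels' protocols. The platform annotation gave 1 symbol to 18511 probes, several to 575 and none to 10403, and 18394 of the first kind took their current symbol from RefSeq (rat GRCr8) through the Entrez identifier. The probe with the highest mean stood for a gene. Each comparison is the difference of log2 signals between 2 arrays, and genes at 2-fold or more were counted. The number of arrays limits the precision, and with 1 array per group no test was made.

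The members, gene lists and alternatives were chosen with earlier results of these data known. The genes named are the members and other family genes, the 4 greatest differences per list and comparison (3 for marker lists, of which the microglia, astrocyte and fibroblast lists are described) and the 6 nearest genes of 4 ligands, leaving out symbols that begin with LOC, RGD, Mir, Olr, Vom or AABR. Stat3, Nfkb2, Nfkbia, Cxcl1, Il23a, Gfap and Nr4a3, and further mentions of listed genes outside their greatest differences, were chosen after their values were seen. The oligodendrocyte, neuron and endothelial marker lists had 0 genes at 2-fold in the 3 main comparisons. Alternatives were quantile normalization, median centring, cyclic loess, other filters, the mean of probes and thresholds of 1.5-fold and 3-fold. The counting steps were tested on simulated data. Python 3.11.15, R 4.3.3 and limma 3.58.1 were used.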

Additional observations from a re-analysis of the deposited data

How the results depend on the processing

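No paired analysis was possible because each group had 1 array. Over the 3 main comparisons, none of the 27 differences of the 9 genes changed sign under quantile normalization, median centring or cyclic loess (0 of 27 under each), and the greatest shift was 0.11 log2. The filters and the mean of probes left all 27 as they were, since each gene has 1 probe. With GW the members at least 2-fold higher numbered 2 after median centring and 2 after cyclic loess, with Lif added to Clcf1. At a 1.5-fold threshold 3 members were higher and 1 lower with GW and 3 were lower with SHP siRNA, and at 3-fold 0 were higher with GW and 0 lower with SHP siRNA. Over all genes, 1.5-fold gave 356 higher and 187 lower with IFN-γ, 332 and 586 with GW, and 168 and 142 with SHP siRNA. At 3-fold the counts were 80 and 2 with IFN-γ, 50 and 26 with GW, and 1 and 4 with SHP siRNA. Without the filter SHP siRNA gave 27 higher and 48 lower. The planned pseudocount was not run, since the values were already logs. Signals near the table median, as for Il11, have an unknown background.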
